A study of Mus musculus with 4 samples.

Results

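The serpins of these libraries are the genes whose symbol begins with Serpin, followed by a clade letter from a to i and a gene number, and 61 of the 21993 genes in the files met that rule. The libraries came from cells labelled as uterine NK cells at gd11.5 (gestational day), gated on NK1.1 and CD45 without CD3, from the uterus of females mated with B6 males. There were 2 libraries of mice carrying Cre recombinase under control of Ncr1 (Ncr1Cre), a gene of NK cells and other innate lymphoid cells, and 2 libraries of mice without Cre (control). The question the comparison addresses is which serpins differ between the libraries of these genotypes. Levels are FPKM, fragments scaled to transcript length and to the mapped total, which allows levels of different genes to be set side by side.

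Serpins are proteins of one shared fold. Most of them inhibit serine proteases by offering an exposed loop as bait: the protease cuts the loop, the serpin snaps into a new shape, and the protease stays trapped in a covalent complex. Clade A holds mainly secreted plasma proteins such as alpha-1-antitrypsin, and clade B holds mainly proteins that stay inside cells. Members of clades E to H are secreted or sit in the endoplasmic reticulum and act on plasminogen activation, complement and collagen. In pregnancy, protease inhibitors are known from the decidua and the placenta, where trophoblast invades maternal tissue.

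The labelled cell type was checked against its markers, and the libraries held abundant RNA of other cells. Ncr1 was listed at 0 and 0.152 FPKM in Ncr1Cre and at 0.136 and 0.359 FPKM in control, and Klrb1c, which encodes NK1.1, stood at 0.673 to 0.924 FPKM in Ncr1Cre and 0.449 to 0.973 FPKM in control. Of 12 NK-cell markers 6 were tested, 4 were higher and 0 lower in Ncr1Cre, and their summed level was 41.9 to 42.0 FPKM in Ncr1Cre and 27.8 to 28.1 FPKM in control. The summed level of 12 epithelial markers was 48688 to 51649 FPKM in Ncr1Cre and 10129 to 10248 FPKM in control, and that of 12 stromal markers was 14685 to 14701 FPKM in Ncr1Cre and 32916 to 33447 FPKM in control. Most of the epithelial sum was Prap1, at 46369 and 49335 FPKM in Ncr1Cre and 9530 and 9667 FPKM in control. The epithelial and stromal sums therefore do not compare the amounts of RNA of these cells. Epithelial markers were higher in Ncr1Cre in 12 of 12, and stromal markers were lower in 11 of 12 and higher in 1. Their part in the differences between serpins was not tested, and in these bulk libraries fewer cells of a type and less RNA per cell cannot be told apart. The whole series had summed FPKM of 460108 and 468192 in Ncr1Cre and 384852 and 396770 in control.

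Serpina1e and Serpinb9e belong to families of close copies, and the DNA before the starts of these genes shows how close the copies are. Serpina1a to Serpina1e are mouse copies of the gene for alpha-1-antitrypsin, which is known as an inhibitor of neutrophil elastase. Whether each copy inhibits that protease was not tested. Between any 2 of these 5 genes, the 250 bases before the start were 91.6% to 97.3% identical over aligned stretches of 184 to 250 bases. The 150 bases before the start are given, from RefSeq on GRCm38.p6 and read 5′ to 3′, for Serpina1e as the highest copy, for Serpina1b as the next highest copy in Ncr1Cre and for Serpina1c as a copy listed at 0 in control. Capitals mark GTTAAT, the half-site letters of the motif bound by the liver factor HNF1.
Serpina1e (GRCm38.p6, chr12:103956898-103957047, minus strand): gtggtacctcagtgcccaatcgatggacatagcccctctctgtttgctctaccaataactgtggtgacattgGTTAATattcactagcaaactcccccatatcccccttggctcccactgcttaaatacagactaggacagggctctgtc
Serpina1b (GRCm38.p6, chr12:103738190-103738339, minus strand): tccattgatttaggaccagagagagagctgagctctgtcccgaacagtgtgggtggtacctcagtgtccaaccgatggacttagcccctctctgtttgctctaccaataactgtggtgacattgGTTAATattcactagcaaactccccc
Serpina1c (GRCm38.p6, chr12:103904951-103905100, minus strand): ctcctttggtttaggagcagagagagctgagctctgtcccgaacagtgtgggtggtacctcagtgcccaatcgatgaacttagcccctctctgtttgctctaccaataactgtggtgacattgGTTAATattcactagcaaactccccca
All 5 copies share the run of 55 bases that follows, and of 32851 promoters in the table it was found in these 5.
Shared run of the Serpina1 copies: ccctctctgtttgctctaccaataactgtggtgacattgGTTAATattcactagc
GTTAAT, or ATTAAC on the other strand, was searched in the 150 bases before the start and was found in 3.71% of all promoters. Its first base stood at position -78 from the annotated start in Serpina1e, at -26 in Serpina1b and at -27 in Serpina1c, the base just before the start being -1. The bases after the start lay in a GENCODE transcript of the gene for Serpina1e, but not for Serpina1b and Serpina1c. These positions thus depend on which starts are annotated.

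The Serpinb9 group holds Serpinb9, the inhibitor of granzyme B that protects cytotoxic lymphocytes from their own protease, and 6 mouse copies named Serpinb9b to Serpinb9g. Serpinb9d to Serpinb9g were 89.2% to 99.1% identical to one another over aligned stretches of 235 to 251 bases. The 150 bases before the start are given for Serpinb9e and Serpinb9g, the highest copies in Ncr1Cre, and for Serpinb9b and Serpinb9, which lack the letters marked in the others. Capitals mark TGACGT, the core letters of the cAMP response element.
Serpinb9e (GRCm38.p6, chr13:33249458-33249607, plus strand): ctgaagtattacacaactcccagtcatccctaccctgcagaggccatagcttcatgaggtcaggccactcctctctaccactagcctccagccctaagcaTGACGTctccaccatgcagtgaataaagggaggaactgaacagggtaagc
Serpinb9g (GRCm38.p6, chr13:33484640-33484789, plus strand): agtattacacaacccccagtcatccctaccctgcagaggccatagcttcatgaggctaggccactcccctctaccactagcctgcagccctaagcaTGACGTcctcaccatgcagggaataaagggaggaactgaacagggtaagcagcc
Serpinb9b (GRCm38.p6, chr13:33027264-33027413, plus strand): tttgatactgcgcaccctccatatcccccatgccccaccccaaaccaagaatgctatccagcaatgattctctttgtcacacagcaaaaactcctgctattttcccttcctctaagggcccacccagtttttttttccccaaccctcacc
Serpinb9 (GRCm38.p6, chr13:33004391-33004540, plus strand): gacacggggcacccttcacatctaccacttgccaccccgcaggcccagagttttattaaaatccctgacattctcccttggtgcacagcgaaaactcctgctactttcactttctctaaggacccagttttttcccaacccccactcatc
TGACGT, or ACGTCA on the other strand, stood in this window in Serpinb9c, Serpinb9d, Serpinb9e, Serpinb9f and Serpinb9g, always within the letters agcaTGACGT. It was found in 5.15% of all promoters, and its letters were not in the windows of Serpinb9 and Serpinb9b. Both motifs were chosen after the sequences were seen and are descriptions of these windows.

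Of the 61 serpins, 23 reached a mean of 1 FPKM over the 4 libraries and were tested. Of these 23, 12 were higher and 10 were lower in Ncr1Cre by limma on log2(FPKM + 1) at an adjusted p under 0.05, and 1 did not pass. Of the 12, 8 were higher by at least 1 on the log2 scale, and of the 10, 3 were lower by at least 1, against 9.73% and 2.65% of all genes tested. With a pseudocount of 0.1 in place of 1, 11 were higher and 4 lower by at least 1, against 12.7% and 4.2% of all genes tested. Over all 11762 genes tested, 48.5% passed, 30.9% as higher and 17.6% as lower. The libraries of the genotypes did not overlap in 22 of the 23 serpins, where 76.2% of all tested genes did not overlap. The median log2 fold change was 0.48 over the 23 serpins and 0.11 over all tested genes. These counts are not support on their own, since 6 of the 23 had a control mean under 1 FPKM and reached the filter through Ncr1Cre, and 0 reached it through control alone. Median rescaling moved the median of all tested genes to -0.05 and turned the split of all calls from 3638 higher and 2071 lower into 2662 higher and 3037 lower, while 11 serpins stayed higher and 10 stayed lower.

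Of the 10 serpins with a mean of at least 10 FPKM, 9 were lower and 1 was higher in Ncr1Cre, where among all tested genes of that level 22.8% were lower and 35.8% higher. Of the 13 serpins under 10 FPKM, 11 were higher and 1 was lower, where among all genes of that level 27.5% were higher and 14.0% lower. Of these 11, 6 had a control mean under 1 FPKM and reached the filter through Ncr1Cre, so they could only come out higher, and the count is no evidence of a relation with level. Serpine2, Serpinf1, Serping1 and Serpinh1 were all lower in Ncr1Cre. Clade A held 3 higher, 1 lower and 1 that did not pass, and clade B held 9 higher and 4 lower. Of these, Serpina1a and Serpina1b in clade A, and Serpinb9c, Serpinb9d, Serpinb9f and Serpinb9g in clade B, reached the filter through Ncr1Cre. Those genes could only come out higher, so the counts are no evidence of a relation with clade. Over all tested genes 30.9% were higher and 17.6% lower.

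**Figure D1:**
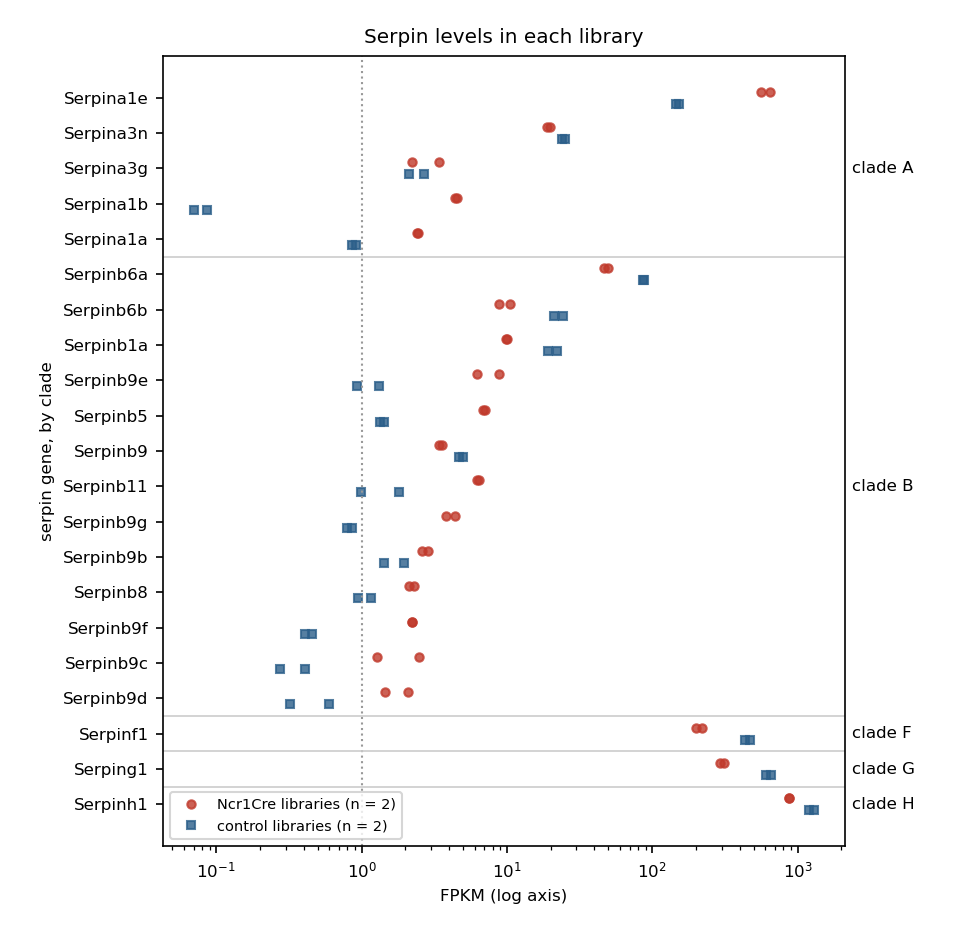
FPKM of the 21 tested serpins of clades A, B and F to H in each library on a log axis, by clade, with Ncr1Cre libraries as circles and control libraries as squares. The dotted line marks the filter of 1 FPKM. The libraries of the genotypes overlap only for Serpina3g.

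**Figure D2:**
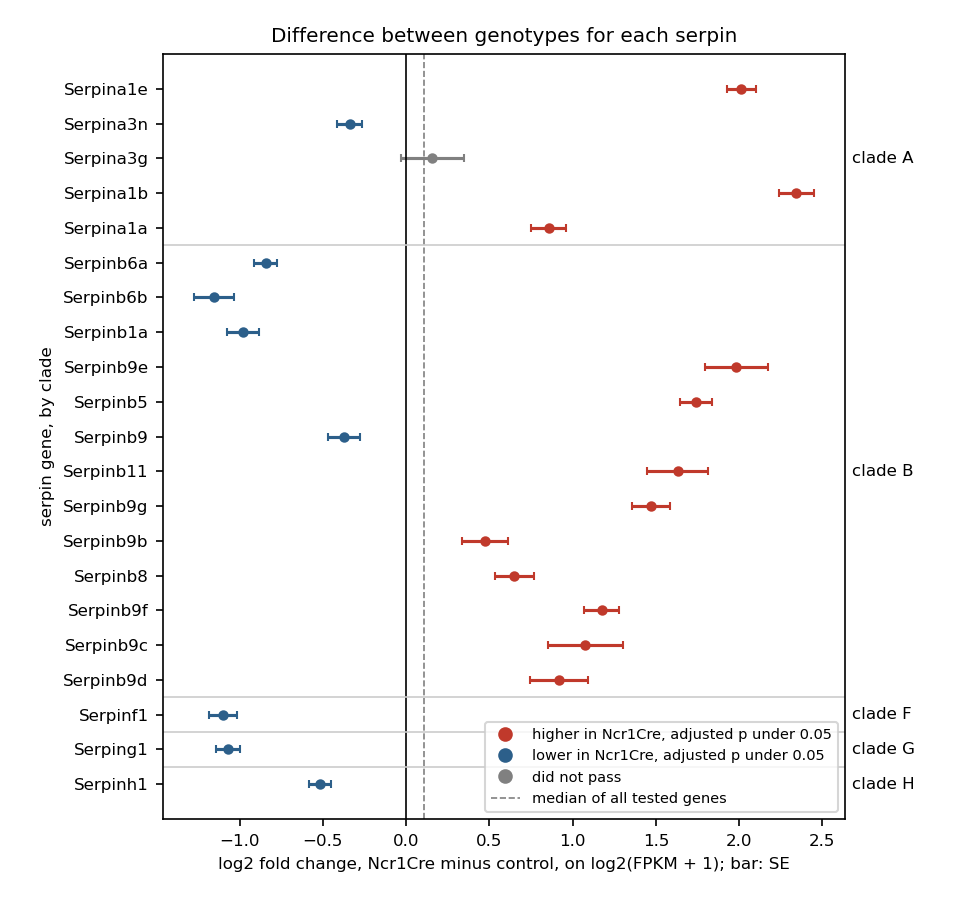
Log2 fold change of the same 21 serpins, Ncr1Cre minus control, on the log2(FPKM + 1) scale with its SE as the bar. On this scale Serpina1b has the highest value at 2.34 and Serpinb6b the lowest at -1.15. The dashed line marks the median of all tested genes at 0.11.

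Serpinh1, in clade H, was the highest serpin in every library and was lower in Ncr1Cre. It encodes Hsp47, a chaperone of the endoplasmic reticulum that binds folding procollagen and inhibits no protease. It stood at 872 and 868 FPKM in Ncr1Cre, against 1295 and 1200.0 FPKM in control. All Ncr1Cre libraries were below all control libraries, by a log2 fold change of -0.52 (SE 0.066, adjusted p = 0.00314). Without the filter on low values the adjusted p reached 0.0578, the top of a range that began at 0.000881 over 11 alternatives. Of 18 tested genes of collagen folding and modification, 14 were lower and 0 higher, against 17.6% and 30.9% of all genes tested. The median of the 18 was -0.82. Among them Col3a1 averaged 1703 ± 18.6 FPKM in Ncr1Cre and 4111 ± 10.6 FPKM in control, Col1a2 averaged 3336 ± 32.6 FPKM in Ncr1Cre and 7442 ± 64.4 FPKM in control, and Crtap, a partner in collagen prolyl hydroxylation, averaged 102 ± 5.31 FPKM in Ncr1Cre and 218 ± 6.36 FPKM in control (SD, n = 2 each). P4hb, a prolyl hydroxylase subunit and disulfide isomerase, was picked with its values in view: it was at 526 and 561 FPKM in Ncr1Cre and 463 and 502 FPKM in control, and did not pass. Col1a1, Col1a2, Col3a1 and Sparc are in the stromal marker list too.

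Serping1, in clade G, was lower in Ncr1Cre. It encodes the C1 inhibitor, which blocks the complement proteases C1r and C1s and the contact proteases kallikrein and factor XII. Its level was 291 and 311 FPKM in Ncr1Cre, against 608 and 658 FPKM in control. The genotypes were far apart and the libraries within each were close, with a 2.10-fold higher mean in control and a log2 fold change of -1.07 (SE 0.073, adjusted p = 0.000507). C1s1, which encodes a target of this inhibitor, averaged 87.2 ± 0.738 FPKM in Ncr1Cre and 184 ± 12.8 FPKM in control and was lower too. The subunits of C1q moved the other way, with C1qb at 4.21 ± 0.299 FPKM in Ncr1Cre and 1.16 ± 0.0506 FPKM in control, and C1qc at 3.52 ± 0.0860 FPKM in Ncr1Cre and 0.773 ± 0.0451 FPKM in control (SD, n = 2 each). Kng2, a kininogen gene of the contact system, averaged 29.7 ± 2.06 FPKM in Ncr1Cre and 5.77 ± 0.379 FPKM in control. Of the 12 tested genes of C1 and the contact system, 4 were higher and 5 lower, against 30.9% and 17.6% of all genes tested. The median of the 12 was 0.25. C1qc reached the filter through Ncr1Cre, and C1rl, among the 5 lower ones, through control, so their directions were fixed by it. Macrophage and dendritic cell markers, whose list holds C1qa, were higher in 4 of 5 tested and lower in 0, at a summed 79.1 to 80.0 FPKM in Ncr1Cre and 19.7 to 20.2 FPKM in control.

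Serpinf1, in clade F, encodes pigment epithelium-derived factor, a secreted protein known to restrain vessel growth that inhibits no protease. It stood at 199.7 and 221 FPKM in Ncr1Cre, against 432 and 471 FPKM in control. The control libraries were 2.15-fold higher in the mean, and the log2 fold change was -1.10 (SE 0.082, adjusted p = 0.000647). Serpinf2, which encodes the plasmin inhibitor alpha-2-antiplasmin, stayed below the filter at 0.436 and 0.400 FPKM in Ncr1Cre and 0.0356 FPKM and a listed 0 in control. Serpinf1 was the higher gene of this clade in every library.

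Serpine2, in clade E, was lower in Ncr1Cre. It encodes protease nexin-1, which blocks thrombin and the plasminogen activators at cell surfaces. It stood at 55.7 and 57.8 FPKM in Ncr1Cre, against 104 and 102 FPKM in control (log2 fold change -0.85, SE 0.063, adjusted p = 0.000637). Both Ncr1Cre libraries were below both control libraries. Serpine3 stayed below the filter, at a mean of 0.0326 FPKM over the 4 libraries.

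Of 5 tested genes of plasminogen activation, 2 were higher and 3 lower, against 30.9% and 17.6% of all genes tested. The median of the 5 was -0.53. Plau, which encodes uPA, averaged 111 ± 5.53 FPKM in Ncr1Cre and 59.3 ± 2.33 FPKM in control, and Plaur, its receptor, averaged 37.6 ± 1.26 FPKM in Ncr1Cre and 15.6 ± 0.756 FPKM in control. Plat, which encodes tPA, was picked with its values in view: it was at 37.9 and 39.9 FPKM in Ncr1Cre and 58.0 and 54.9 FPKM in control, lower in Ncr1Cre. The receptor genes Lrp1 and Vldlr, whose products clear serpin-protease complexes, were lower as well: Lrp1 averaged 70.7 ± 5.24 FPKM in Ncr1Cre and 191 ± 31.1 FPKM in control, and Vldlr averaged 11.8 ± 0.438 FPKM in Ncr1Cre and 30.5 ± 0.543 FPKM in control (SD, n = 2 each). Stromal markers were lower in the same libraries, and of the smooth muscle markers 6 of 6 tested were lower and 0 higher, with a median of -2.93 and sums of 177 to 180.0 FPKM in Ncr1Cre and 544 to 550.3 FPKM in control. The part of either in these values and in those of the lower serpins was not tested.

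Clade A was carried by 1 gene, Serpina1e, the only serpin above 10 FPKM that was higher in Ncr1Cre. It stood at 565 and 645 FPKM in Ncr1Cre, against 146 and 152 FPKM in control. In Ncr1Cre it was behind Serpinh1 alone, and in control it was behind Serpinh1, Serping1 and Serpinf1. The mean was 4.07-fold higher in Ncr1Cre (log2 fold change 2.01, SE 0.085, adjusted p = 0.000203). Serpina1e held 98.3% and 98.7% of the summed FPKM of the 5 copies in Ncr1Cre, and 99.4% and 99.3% in control.

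The other Serpina1 copies were low and their separate values are uncertain, because reads of one copy can be counted for another. Of windows of 100 bases in the longest annotated transcript, 14.8% were shared with another gene in Serpina1e, 20.6% in Serpina1b, 49.9% in Serpina1a, 58.5% in Serpina1c and 29.3% in Serpina1d. Serpina1b stood at 4.57 and 4.37 FPKM in Ncr1Cre, against 0.0706 and 0.0858 FPKM in control. The control values rest on about 5 and 3 fragments at the depth implied by the files, so no fold is given, and the log2 fold change was 2.34 (SE 0.11, adjusted p = 0.000221). With a pseudocount of 0.1 it was 4.68. Serpina1a averaged 2.42 ± 0.0319 FPKM in Ncr1Cre and 0.889 ± 0.0458 FPKM in control (SD, n = 2 each) and was higher (log2 fold change 0.86, adjusted p = 0.00269, and 1.35 on the log2 scale with a pseudocount of 0.1). Serpina1a and Serpina1b had control means under 1 FPKM and reached the filter through Ncr1Cre, so their direction was fixed by it. Serpina1c was listed at 1.81 and 1.80 FPKM in Ncr1Cre and at 0 in both control libraries. Serpina1d was listed at 1.16 FPKM and 0 in Ncr1Cre and at 0 and 0.0496 FPKM in control, and neither reached the filter. The sum over all 5 copies, which moves less when reads are traded between them, was 575 and 654 FPKM in Ncr1Cre and 146 and 153 FPKM in control, a 4.10-fold higher mean in Ncr1Cre.

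Serpina1 genes are known for high expression in the liver, so markers of yolk sac endoderm and hepatocytes are given beside them. Afp stood at 17.9 and 19.5 FPKM in Ncr1Cre and 1.5 and 1.4 FPKM in control, and Apoa1 stood at 14.1 and 15.9 FPKM in Ncr1Cre and 1.30 and 1.30 FPKM in control. Alb stood at 5.7 and 6.0 FPKM in Ncr1Cre and 5.29 and 5.52 FPKM in control and did not pass. The summed level of 8 such markers was 41.8 to 45.4 FPKM in Ncr1Cre and 8.50 to 8.56 FPKM in control, below Serpina1e in every library, and their part in its difference was not tested.

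The Serpina3 genes, whose products inhibit chymotrypsin-like proteases and cathepsins, held 2 tested members, of which 1 was lower and 1 did not pass. Serpina3n, an acute-phase inhibitor of cathepsin G and granzyme B, stood at 18.9 and 19.7 FPKM in Ncr1Cre, against 24.0 and 25.3 FPKM in control. Its log2 fold change was -0.34 (SE 0.076, adjusted p = 0.0177). The call was lost at 0.0737 without Ncr1Cre replicate 1, 0.0528 without control replicate 1 and 0.0850 without control replicate 2, within a range of 0.00518 to 0.0850. Serpina3g, an intracellular inhibitor of lysosomal cathepsins, stood at 2.23 and 3.42 FPKM in Ncr1Cre and 2.12 and 2.69 FPKM in control. Its libraries overlapped and it did not pass (log2 fold change 0.16, SE 0.19, adjusted p = 0.529). The other 8 of the 10 Serpina3 genes had means of at most 0.205 FPKM, and 4 of them were listed at 0 in every library.

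In clade B, Serpinb1a, Serpinb6a, Serpinb6b and Serpinb9 were lower in Ncr1Cre, and Serpinb5, Serpinb8, Serpinb11 and Serpinb9b to Serpinb9g were higher. Serpinb6a, an inhibitor of cathepsin G inside cells, was the highest gene of the clade. It stood at 46.7 and 49.5 FPKM in Ncr1Cre, against 85.8 and 88.5 FPKM in control (log2 fold change -0.84, SE 0.069, adjusted p = 0.000792). Serpinb6b, a close relative of it, stood at 8.84 and 10.5 FPKM in Ncr1Cre, against 21.1 and 24.3 FPKM in control (log2 fold change -1.15, SE 0.12, adjusted p = 0.00157). Serpinb1a, an inhibitor of the neutrophil proteases elastase, cathepsin G and proteinase 3, stood at 9.88 and 10.03 FPKM in Ncr1Cre, against 19.1 and 22.1 FPKM in control (log2 fold change -0.98, SE 0.098, adjusted p = 0.00146). Each of these 3 genes was below control in both Ncr1Cre libraries, and the levels of Serpinb6b and Serpinb1a overlapped within each genotype. Of the proteases Serpinb1a blocks, both genes given here were picked with their values in view. Prtn3 (proteinase 3) was at 5.41 and 7.15 FPKM in Ncr1Cre and 0.487 and 0.666 FPKM in control, while Elane, neutrophil elastase, was listed at 0 in both Ncr1Cre libraries and at 0 and 0.128 FPKM in control. The 6 neutrophil markers summed to 20.6 to 21.7 FPKM in Ncr1Cre and 3.36 to 3.37 FPKM in control. Of 3 tested, 2 were higher and 0 lower. Most of the Ncr1Cre sum was S100a8, at 9.84 and 8.30 FPKM, and S100a9, at 9.96 and 10.6 FPKM. S100a8 reached the filter through Ncr1Cre, so its direction was fixed by it. Mpo averaged 1.08 FPKM in Ncr1Cre and 1.30 FPKM in control and did not pass. Ly6g, Elane and Csf3r were below the filter. The part of neutrophils in these values was not tested. Of the other Serpinb6 genes, Serpinb6c was at 0.648 and 0.431 FPKM in Ncr1Cre and 0.101 and 0.246 FPKM in control and was not tested, and the remaining 2 were listed at 0 in every library.

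All 7 members of the Serpinb9 group reached the filter, and 6 were higher in Ncr1Cre while Serpinb9 itself was lower. Of the 6, 4 had a control mean under 1 FPKM (Serpinb9c, Serpinb9d, Serpinb9f and Serpinb9g) and reached the filter through Ncr1Cre, so their direction was fixed by it. Serpinb9e, the highest copy in Ncr1Cre, stood at 6.19 and 8.80 FPKM there, against 1.33 and 0.937 FPKM in control (log2 fold change 1.98, SE 0.19, adjusted p = 0.00128). Serpinb9g stood at 4.38 and 3.80 FPKM in Ncr1Cre, against 0.80 and 0.86 FPKM in control (log2 fold change 1.47, SE 0.11, adjusted p = 0.000691). Serpinb9f stood at 2.23 and 2.23 FPKM in Ncr1Cre, against 0.406 and 0.458 FPKM in control (log2 fold change 1.17, SE 0.11, adjusted p = 0.00112). For these 3 copies both Ncr1Cre libraries were above both control libraries. Serpinb9c stood at 1.29 and 2.50 FPKM in Ncr1Cre, against 0.410 and 0.275 FPKM in control (log2 fold change 1.08, SE 0.23, adjusted p = 0.0147). The call was lost at 0.0598 without control replicate 2 and 0.116 without the filter, within a range of 0.00168 to 0.116. Serpinb9d averaged 1.76 ± 0.442 FPKM in Ncr1Cre and 0.459 ± 0.193 FPKM in control (log2 fold change 0.92, adjusted p = 0.0102, and 0.0812 without the filter, the highest of a range from 0.00595).

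With a pseudocount of 0.1 the log2 fold change was 2.12 for Serpinb9c, 1.76 for Serpinb9d and 2.13 for Serpinb9f. Serpinb9b averaged 2.74 ± 0.190 FPKM in Ncr1Cre and 1.70 ± 0.376 FPKM in control (SD, n = 2 each). Its log2 fold change of 0.48 (adjusted p = 0.0394) was lost in 6 of 10 alternatives, with adjusted p between 0.0328 and 0.158. Among these were median rescaling at 0.0971, quantile normalization at 0.144, and the fits without Ncr1Cre replicate 1 at 0.0582, without Ncr1Cre replicate 2 at 0.107 and without control replicate 1 at 0.157. Serpinb9 stood at 3.59 and 3.40 FPKM in Ncr1Cre and 4.67 and 4.99 FPKM in control. Its log2 fold change of -0.38 (adjusted p = 0.0277) was lost when any 1 of the 4 libraries was left out, with adjusted p of 0.0611 and 0.0959 without Ncr1Cre replicates 1 and 2 and 0.0823 and 0.129 without control replicates 1 and 2, and also without the filter on low values; its 10 alternatives gave 0.00920 to 0.129. Serpinb9f shared 52.3% of its windows with another gene, Serpinb9g 38.5%, Serpinb9c 16.7%, Serpinb9e 10.1% and Serpinb9d 7.21%, so their separate values are uncertain, while Serpinb9 and Serpinb9b shared 0%. The summed level of Serpinb9b to Serpinb9g was 18.1 and 22.3 FPKM in Ncr1Cre and 4.70 and 5.09 FPKM in control, a 4.13-fold higher mean in Ncr1Cre.

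Serpinb9 copies are known from mouse placenta, and trophoblast markers were higher in the same libraries. All 5 tested trophoblast markers were higher, and the summed level of the 9 listed was 975 to 1095 FPKM in Ncr1Cre and 316 to 356 FPKM in control. Gcm1 was listed at 0 in every library, and Prl3d1 was at 0.369 and 0.552 FPKM in Ncr1Cre and 0.0612 and 0.112 FPKM in control. Among granule serine proteases, the kind of enzyme Serpinb9 acts on, 7 of 8 tested were higher and 0 lower, with a median of 1.64. Over all tested genes 30.9% were higher and 17.6% lower. Prtn3 reached the filter through Ncr1Cre, so it could only come out higher, and Gzma did not pass. Gzmd averaged 85.0 ± 5.52 FPKM in Ncr1Cre and 24.2 ± 1.02 FPKM in control, and Gzmg averaged 95.4 ± 4.71 FPKM in Ncr1Cre and 26.4 ± 0.360 FPKM in control (SD, n = 2 each). Gzmb, whose product Serpinb9 blocks, was picked with its values in view: it was at 9.39 and 8.84 FPKM in Ncr1Cre and 5.06 and 5.03 FPKM in control. Gzmd and Gzmg resemble each other and related granzyme genes closely, and the counting could have split reads between them. The part of NK cells or trophoblast in these values was not tested.

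Of 12 clade B genes known from the cluster that holds Serpinb5, Serpinb8 and Serpinb11, 3 were tested and all 3 were higher in Ncr1Cre. Over all tested genes 30.9% were higher. Serpinb5 encodes maspin, a protein of epithelial cells. It stood at 6.87 and 7.03 FPKM in Ncr1Cre, against 1.33 and 1.43 FPKM in control, a 5.03-fold higher mean (log2 fold change 1.74, SE 0.097, adjusted p = 0.000318). Serpinb11 stood at 6.4 and 6.2 FPKM in Ncr1Cre, against 0.996 and 1.81 FPKM in control (log2 fold change 1.63, SE 0.18, adjusted p = 0.00202). Serpinb8, which in humans is known as an inhibitor of furin, averaged 2.22 ± 0.123 FPKM in Ncr1Cre and 1.05 ± 0.146 FPKM in control (log2 fold change 0.65, adjusted p = 0.00869, and 1.012 on the log2 scale with a pseudocount of 0.1). Of the 9 others in this cluster, 6 were listed at 0 in every library, and Serpinb2, Serpinb7 and Serpinb10 had means of 0.325, 0.262 and 0.320 FPKM. Epcam, an adhesion gene of epithelium, stood at 122 and 121 FPKM in Ncr1Cre and 27.7 and 29.4 FPKM in control, and the part of epithelial RNA in these serpins was not tested.

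Of the 38 serpins below the filter, 13 were listed at 0 in every library. The other 25 had means of 0.911 FPKM at most. Serpina9 stood at 1.57 and 1.88 FPKM in Ncr1Cre and 0.120 and 0.0744 FPKM in control, and Serpina6, which encodes the corticosteroid carrier of plasma, was listed at 0.285 and 0.726 FPKM in Ncr1Cre and at 0 in both control libraries. The plasma inhibitors of thrombin were near the bottom of the range. Serpinc1, which encodes antithrombin, had a mean of 0.0307 FPKM over the 4 libraries, and Serpind1, heparin cofactor II, had 0.10 FPKM. In clade I, Serpini1, the neuroserpin gene, had a mean of 0.105 FPKM and Serpini2 a mean of 0.0270 FPKM. Clades C, D and I thus held no gene above the filter.

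**Figure D3:**
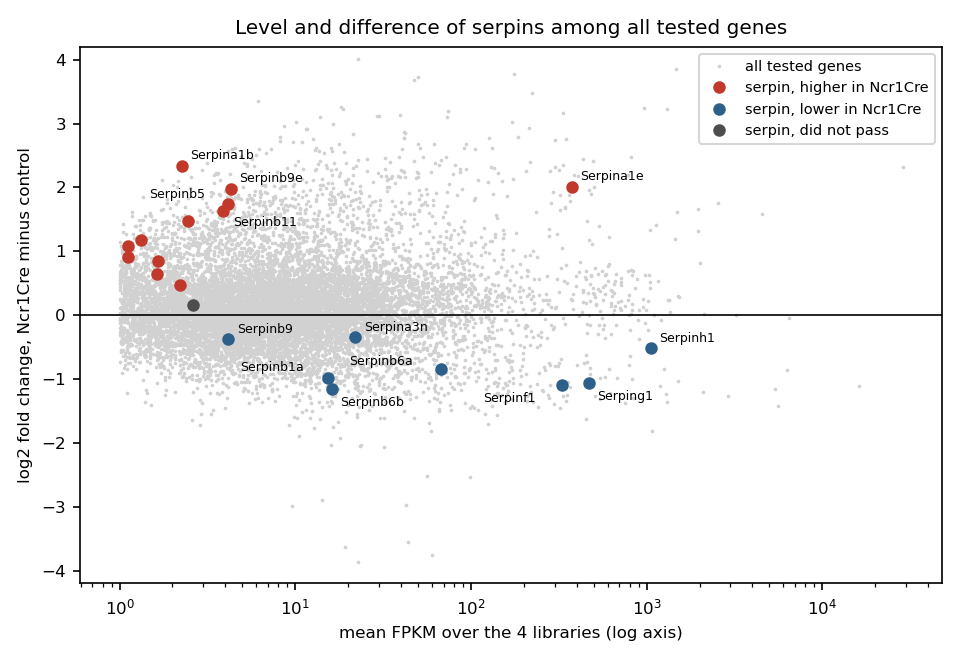
Log2 fold change, Ncr1Cre minus control, against mean FPKM on a log axis for all tested genes in grey and 21 tested serpins of clades A, B and F to H in colour, with symbols for Serpina1b and for serpins above 3.5 FPKM; 2 other genes lie outside the axis range of 4.2. Above 10 FPKM, Serpina1e lies above 0 and the other serpins drawn lie below it.

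The sums by clade show how the serpin RNA was divided. Over the 23 tested genes the serpins summed to 2192 and 2322 FPKM in Ncr1Cre and 2888 and 2884 FPKM in control, a ratio of Ncr1Cre to control of 0.782. Clade A took 27.0% and 29.1% of that sum in Ncr1Cre and 5.98% and 6.28% in control. Clade H took 39.8% and 37.4% in Ncr1Cre and 44.8% and 41.6% in control, clade G took 13.3% and 13.4% in Ncr1Cre and 21.1% and 22.8% in control, and clade F took 9.11% and 9.52% in Ncr1Cre and 15.0% and 16.3% in control. Clade B, with the most tested genes, took 4.68% and 4.79% in Ncr1Cre and 4.80% and 5.18% in control. The libraries of the genotypes did not overlap in any of these 5 shares, but for clade B they nearly met, at 4.79% and 4.80%. All shares are parts of the same sum, so the larger share of clade A in Ncr1Cre lowers the others.

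Within clade A, the difference in the sum rested largely on 1 gene, while clade B held differences in both directions. Clade A summed to 593 and 675 FPKM in Ncr1Cre and 173 and 181 FPKM in control, and without Serpina1e it summed to 28.1 and 29.9 FPKM in Ncr1Cre and 27.1 and 29.0 FPKM in control, ranges that overlap. Clade B summed to 103 and 111 FPKM in Ncr1Cre and 139 and 149 FPKM in control, a ratio of 0.742 that became 1.03 without Serpinb6a. In that remainder Serpinb1a, Serpinb6b and Serpinb9 were lower and 9 genes were higher, and these differences offset each other in the sum. The sums are given as a description, with no test.

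**Figure D4:**
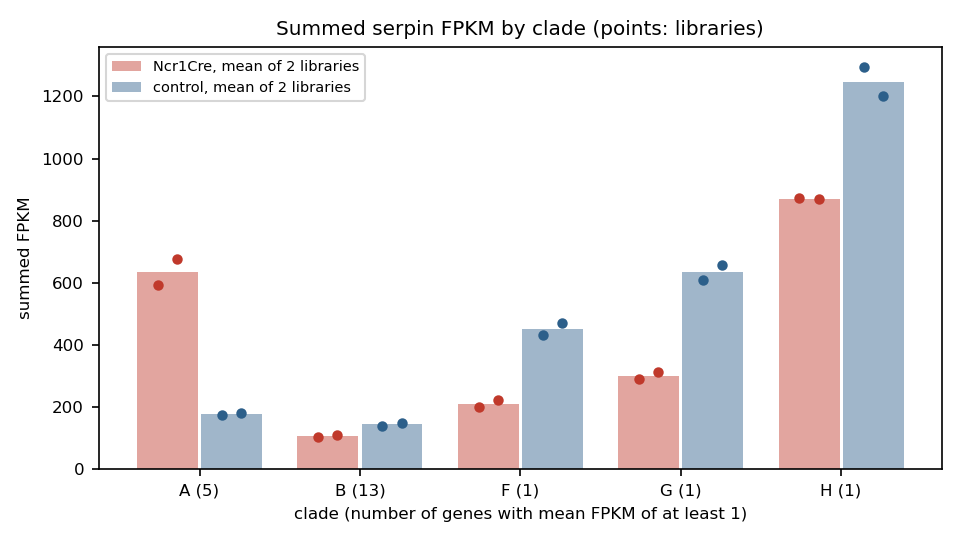
Summed FPKM of the tested serpins of clades A, B and F to H, with the mean of the libraries of each genotype as bars and each library as a point. Clade A is higher in Ncr1Cre, at 593 and 675 FPKM in Ncr1Cre against 173 and 181 FPKM in control, and clades B and F to H are lower there.

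Proteases and inhibitors of other families moved in both directions in the same libraries. Over all tested genes 30.9% were higher and 17.6% lower. Of 13 tested trypsin-like tissue serine proteases, 7 were higher and 6 lower, with a median of 1.22. Tmprss11a, among the 6 lower ones, reached the filter through control, so its direction was fixed by it. Tmprss4, a membrane protease, averaged 365 ± 6.78 FPKM in Ncr1Cre and 68.8 ± 1.56 FPKM in control, and St14 (matriptase) averaged 114 ± 3.78 FPKM in Ncr1Cre and 20.4 ± 0.988 FPKM in control. Hpn (hepsin) averaged 11.2 ± 0.0752 FPKM in Ncr1Cre and 1.56 ± 0.0291 FPKM in control, and Prss8 (prostasin) averaged 37.8 ± 0.352 FPKM in Ncr1Cre and 9.09 ± 0.587 FPKM in control (SD, n = 2 each). Of the 6 lower ones, Htra3, picked with its values in view, was the highest, at 448 and 454 FPKM in Ncr1Cre and 918 and 878 FPKM in control. Of 10 cysteine cathepsins, 6 were higher and 2 lower, with a median of 0.77, and Ctsb averaged 2257 ± 4.02 FPKM in Ncr1Cre and 738 ± 9.47 FPKM in control. Of 9 tested coagulation and anticoagulant genes, 4 were higher and 4 lower, with a median of -0.37. F3, which encodes tissue factor, averaged 571 ± 11.4 FPKM in Ncr1Cre and 154 ± 7.01 FPKM in control, while Thbd, thrombomodulin, averaged 48.8 ± 0.613 FPKM in Ncr1Cre and 108 ± 2.90 FPKM in control (SD, n = 2 each).

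Of 20 tested protease inhibitors outside the serpins, 6 were higher and 11 lower in Ncr1Cre, against 30.9% and 17.6% of all genes tested. The median of the 20 was -0.50. Itih2, among the 11 lower ones, reached the filter through control, so its direction was fixed by it. Spint1 and Spint2, the membrane inhibitors of matriptase and hepsin, were higher, with Spint1 at 98.6 ± 0.798 FPKM in Ncr1Cre and 20.1 ± 0.289 FPKM in control and Spint2 at 557 ± 40.5 FPKM in Ncr1Cre and 108 ± 4.37 FPKM in control. Wfdc2, a secreted inhibitor-like protein of reproductive epithelium, averaged 633 ± 38.4 FPKM in Ncr1Cre and 138 ± 8.98 FPKM in control, and Itih5 averaged 14.3 ± 0.198 FPKM in Ncr1Cre and 40.2 ± 1.73 FPKM in control (SD, n = 2 each). Ctla2a, a cathepsin inhibitor also picked with its values in view, was above every serpin, at 9395 and 10265 FPKM in Ncr1Cre and 15042 and 29598 FPKM in control, with the control libraries far apart.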

How the data were processed

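RNA sequencing gave 4 libraries, 2 of Ncr1Cre and 2 of control, grouped by the genotype label. The rest of the genotype, which both groups share, and some results on single serpins are not reported here. The authors deposited FPKM per gene, made with Cufflinks on build mm9 per the submitters' processing notes. The sources used here give no version, aligner or annotation. Whether the libraries within a genotype are from different mice is not stated, so p-values measure the spread between libraries, which may be technical.

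The members and lists were chosen with earlier results of these data known. Limma 3.58.1 in R 4.3.3 was fitted with an intensity trend on log2(FPKM + 1) for 11762 genes averaging 1 FPKM or more, two-sided, with Benjamini-Hochberg adjustment over all of them. Fold changes on this scale understate the change of low genes. The fit was tested on simulated data with a far smaller share of changed genes than was called here. That test cannot show the error rate of the fit at the share called here. Values in each library are given for serpins with a genotype mean of at least 10 FPKM or a called difference of at least 1 on the log2 scale, and up to 4 called genes with the smallest p are named from each list. Exact zeros can be failed estimates, so such genes are given as listed at 0.

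The files give no counts. Genes with 1 transcript in the annotation were searched at low values for steps of whole fragments, and 33.0% to 37.0% came out whole within 0.02 fragments at totals of 26020000 and 22660000 (Ncr1Cre) and 38510000 and 20930000 (control). These totals are estimates. Multiples of them fit part of the values as well, and no count test was run. Of the tested serpins, 9 had under 100 implied fragments in at least 1 library. All 61 identifiers matched GENCODE M21, and 52 serpins had a promoter in the RefSeq table of GRCm38.p6, a newer build than mm9. Coordinates printed with sequences are of that build.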

Additional observations from a re-analysis of the deposited data

How the results depend on the processing

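All 22 called serpins kept their direction in every alternative that tested them, and 16 kept their call in each. Their libraries did not overlap between genotypes, so another pseudocount or a left-out library could not reverse a direction. The filter, intensity trend and replicate block settings left the fold changes as they were. Only median rescaling and quantile normalization could have reversed a direction. The number higher in Ncr1Cre, 12, was 1 when genes had to average 5 FPKM, since 10 serpins were left to test there. It was 11 to 13 under the other alternatives, and the number lower was 8 to 10 throughout. Without 1 library 11 were higher and 8 to 9 lower, the single library left in a genotype taking its spread from the other genotype. Serpina3g, which did not pass, changed sign to -0.011 under quantile normalization, and without 1 library it ranged from -0.070 to 0.38. The ratio of summed FPKM, Ncr1Cre over control, was 0.782 over all tested serpins, 0.688 after median rescaling, 0.846 without Serpinh1 and 0.760 to 0.804 without 1 library. For clade A it was 3.59, with 3.16 after median rescaling and 1.03 without Serpina1e. For clade B it was 0.742, with 0.653 after median rescaling and 1.03 without Serpinb6a. The cause of these shifts was not tested beyond the removal of the named genes. The labels share only a replicate number, and replicate differences correlated at 0.16 between the genotypes over 11762 genes; with the replicate block 12 serpins were higher and 10 lower. Depth limits the copies with few implied fragments, such as Serpina1b in control.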
